A study of Mus musculus with 7 samples.

Results

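The genes described here concern hypothalamic dopamine, and some are also expressed outside dopamine neurons. These genes are Th, Ddc, Gch1, Slc18a2, Slc6a3, Drd2 and Maob, with the prolactin receptor gene Prlr. They were chosen by name, and every probe set to which the array's annotation gives one of these symbols alone was taken. A probe set is a group of short probes on the array that reads 1 transcript. The rule found 9 probe sets for 7 of the 8 genes, out of 45037 probe sets tested on the array, which name 18193 genes. Ddc and Gch1 each had 2 probe sets, and the one with the higher mean over all arrays is called the main one. No probe set named Prlr alone in the annotation used here, so Prlr has no value below.

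The samples were hypothalami of mice 3 months old, 4 arrays from wild-type mice and 3 from Creb-PomcCre-/- mice. In these knockout mice Creb, a transcription factor activated by cyclic AMP, is deleted by a Cre recombinase under the control of Pomc, the gene for the melanocortin precursor made by a group of arcuate neurons. The labels describe no treatment and no other allele, and they do not say whether a sample is 1 mouse or a pool. The labels call the samples of a group biological replicates; where they are not separate animals, the p-values measure only the spread between these samples. The tissue is whole hypothalamus, in which dopamine neurons are a small share of the cells, so fewer cells of a type and less RNA per cell cannot be told apart.

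Dopamine is made from tyrosine by tyrosine hydroxylase (Th) and aromatic L-amino acid decarboxylase (Ddc), and Gch1 starts the synthesis of the cofactor that tyrosine hydroxylase needs. Slc18a2 loads dopamine into vesicles, Slc6a3 takes it back up from outside the cell, Drd2 encodes an inhibitory receptor for it and Maob an enzyme that breaks it down. In the arcuate nucleus, dopamine neurons release it toward the pituitary, where it holds back prolactin secretion, and prolactin acts back on these neurons through its receptor.

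Because the deleted factor binds the cyclic AMP response element (CRE), the starts of the genes are shown first. The Cre is under the control of Pomc, and the arrays do not show whether Creb was lost in dopamine neurons. The RefSeq promoter windows of GRCm38.p6 reach from 250 bases before to 50 bases after each start, 300 bases in all. They were searched on both strands for the full element TGACGTCA, for its first 5 letters TGACG, which the full element contains on both strands, and for AAAGGTCA, the element bound by the dopamine neuron factor Nr4a2. The full element was found in the windows of Th and Slc18a2. The 120 bases from 100 before to 20 from the start are printed for both, for Gch1, which held only TGACG, and for Slc6a3, which held none of the 3 motifs and varied most among the arrays. Capitals mark TGACGTCA in Th and Slc18a2 and TGACG in Gch1.
Th: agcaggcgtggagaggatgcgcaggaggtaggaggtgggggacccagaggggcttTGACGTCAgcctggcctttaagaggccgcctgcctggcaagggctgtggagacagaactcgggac
Slc18a2: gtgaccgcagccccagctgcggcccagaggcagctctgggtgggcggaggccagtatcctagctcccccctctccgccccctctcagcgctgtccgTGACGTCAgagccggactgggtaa
Gch1: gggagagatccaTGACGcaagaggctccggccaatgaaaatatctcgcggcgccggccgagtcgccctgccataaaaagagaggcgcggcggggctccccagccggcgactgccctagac
Slc6a3: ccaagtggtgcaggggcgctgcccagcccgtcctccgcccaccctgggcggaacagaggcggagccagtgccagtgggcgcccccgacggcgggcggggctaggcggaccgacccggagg
The Th piece is chr7:142899976-142900095 on the minus strand, the Slc18a2 piece chr19:59260778-59260897 on the plus strand, the Gch1 piece chr14:47189394-47189513 on the minus strand and the Slc6a3 piece chr13:73536647-73536766 on the plus strand. Counting bases before the start as negative, the full element lies at -45 to -38 in Th and spans the start of Slc18a2, at -4 to 4. In Gch1, TGACG lies at -88 to -84.

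Of all 32851 windows, 588 (1.79%) held TGACGTCA, 20.8% held TGACG and 1.51% held AAAGGTCA. Of 27025 genes with a window, 549 (2.03%) held the full element in at least 1. Ddc held AAAGGTCA on the reverse strand at -73 to -66 in 1 of its 2 windows. Drd2 held none of the 3 motifs, and of the 3 windows of Prlr, 1 held TGACG at -230 to -226. Maob had no window in the table. A match describes the letters of the window and says nothing of what binds there.

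No difference between the genotypes passed the test in any of the 7 measured dopamine genes. The comparison was fitted with limma over all 45037 probe sets, and a probe set passed when its p-value, adjusted over all of them by the Benjamini-Hochberg method, was under 0.05. Of the 9 probe sets, 0 passed and 0 had an unadjusted p under 0.05. Over the whole array 0.00666% of the probe sets passed, which is 3, and 10.6% had an unadjusted p under 0.05. In 8 of the 9 the knockout mean was higher and in 1, that of Maob, lower. The median difference of the 9 probe sets, knockout minus wild type, was 0.13 on the log2 scale, and that of all probe sets was 0.0084. Without wild-type array 2, described below, 7 were higher, 2 were lower and the median was 0.06.

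Some of the 13 marker lists of other cells and of neighbouring tissue had means on one side as well. Of the genes below, 0 passed the threshold (limma). Of 17 measured genes of the arcuate nucleus, 15 were higher in the knockout, with a median difference of 0.15. Of 19 genes of thalamus and habenula, 16 were lower, with a median of -0.34, and of 20 genes of meninges and fibroblasts, 18 were lower, with a median of -0.68. Single wild-type arrays stood out in both lists. The median deviation of the meningeal genes from their means was 0.45 and 1.21 in wild-type arrays 2 and 3 and -0.42 to -0.26 elsewhere. That of the thalamic genes was 0.88 in wild-type array 2 and -0.28 to 0.19 elsewhere. Of 16 neuron genes, 13 were lower, with a median of -0.06. Other lists were near balance: 7 of 14 genes of ependymal cells and tanycytes and 7 of 13 striatal genes were higher. The part of these lists in the dopamine gene differences was not tested.

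The synthesis enzymes come first. Th, the rate-limiting enzyme, had log2 levels of 9.05, 8.46, 9.16 and 8.70 in wild-type arrays 1 to 4 and of 9.002, 9.03 and 9.19 in knockout arrays 1 to 3. Wild-type arrays 2 and 4 were the lowest, and wild-type arrays 1 and 3 lay within the knockout range. The means were 8.84 ± 0.32 (SD, n = 4) and 9.07 ± 0.10 (SD, n = 3). The knockout was higher by 0.23 ± 0.15 (SE) on the log2 scale, a fold of 1.17 with a 95% interval from 0.925 to 1.49, short of the threshold (limma, adjusted p = 0.613). Without wild-type array 2 the difference was 0.10 ± 0.11.

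Ddc, which turns L-DOPA into dopamine, read 10.74, 10.28, 10.91 and 10.50 in wild-type arrays 1 to 4 and 10.75, 10.55 and 10.91 in knockout arrays 1 to 3 with its main probe set. Arrays 3 of both genotypes were the highest, and arrays of the same number 1 and 3 differed by 0.01 and 0.00068 between the genotypes. The difference was 0.13 ± 0.14 (SE), with an interval from -0.18 to 0.44, and stayed short of the threshold (limma, adjusted p = 0.765). Without wild-type array 2 it was 0.02.

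The second Ddc probe set was the only one of the 9 in which no wild-type value reached the knockout values. It read 4.20, 4.11, 4.01 and 4.16 in wild type and 4.24, 4.24 and 4.28 in the knockout. The difference was 0.13 ± 0.068 (SE), with limma's adjusted p = 0.522. These levels lie below the median of 17 genes of liver, pancreas, muscle and sperm, which was 5.07 on these arrays over a range of 3.21 to 7.79, so they cannot be told from background. Of all probe sets, 6.02% had every knockout value above every wild-type value and 5.02% had every one below.

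Gch1, the first enzyme of cofactor synthesis, read 6.46, 6.18, 6.71 and 6.42 in wild type and 6.64, 6.59 and 6.67 in the knockout with its main probe set. The knockout values lay close together, above all wild-type values but that of array 3. The knockout was higher by 0.19 ± 0.11 (SE), with an interval from -0.06 to 0.45 and limma's adjusted p = 0.568. The other Gch1 probe set gave 0.17 ± 0.16 and wild-type array 2 was again its lowest, at 5.56 against 6.05 to 6.35 on the other 6 arrays. Without that array the 2 probe sets gave 0.11 and 0.02.

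Slc18a2, the vesicular monoamine transporter, read 8.92, 8.37, 9.24 and 8.88 in wild type and 8.85, 8.74 and 9.06 in the knockout. The wild-type arrays held both the lowest and the highest value. The difference was 0.03 ± 0.17 (SE), with an interval from -0.36 to 0.42 (limma, adjusted p = 0.960). Without wild-type array 2 it turned to -0.13 ± 0.11.

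Slc6a3, the plasma membrane dopamine transporter that serves as a marker of dopamine neurons, read 7.82, 6.81, 9.38 and 6.88 in wild-type arrays 1 to 4 and 7.35, 6.73 and 9.36 in knockout arrays 1 to 3. The 2 arrays numbered 3 were far above the other 5 in both genotypes. From the lowest to the highest array the level spanned 2.65 on the log2 scale, or 6.27-fold. Its SD within the genotypes, 1.27, ranked 39 among the 45037 probe sets, at percentile 99.9.

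The genotype means of Slc6a3 were 7.72 ± 1.20 (SD, n = 4) and 7.81 ± 1.38 (SD, n = 3), which put the knockout 0.09 ± 0.72 (SE) higher, with limma's adjusted p = 0.974. Its interval, from a fold of 0.344 to one of 3.30, leaves a wide span of changes within the error. Arrays of the same number differed by less than either SD: knockout minus wild type was -0.47 for number 1, -0.08 for number 2 and -0.02 for number 3. Some arrays of different numbers were as close. Wild-type array 4 read 6.88, against 6.81 and 6.73 in wild-type and knockout array 2. With the replicate number as a block, over arrays 1 to 3, the difference turned to -0.19 ± 0.10 (SE), lower in 3 of 3 pairs, with limma's adjusted p = 0.564. The same 6 arrays without the block gave -0.19 ± 0.77. The labels do not state that the replicate numbers pair the arrays.

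Drd2, the receptor through which dopamine inhibits both its own neurons and the pituitary cells that make prolactin, read 7.76, 7.30, 7.56 and 7.44 in wild type and 7.67, 7.69 and 7.70 in the knockout. The knockout values were nearly equal, with an SD of 0.011 (n = 3), and wild-type array 1 was above them. The wild-type SD was 0.20 (n = 4). The knockout was higher by 0.17 ± 0.10 (SE), with an interval from -0.06 to 0.40 and limma's adjusted p = 0.570. It was 0.10 without wild-type array 2.

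Maob, the monoamine oxidase found mainly in glia and in serotonin and histamine neurons, read 10.18, 10.60, 10.02 and 10.12 in wild type and 10.16, 10.14 and 10.21 in the knockout. Wild-type array 2 was the highest, where most of the other genes were at their lowest. The difference was -0.06 ± 0.12 (SE), with limma's adjusted p = 0.879, and it turned to 0.06 ± 0.053 without wild-type array 2.

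**Figure D1:**
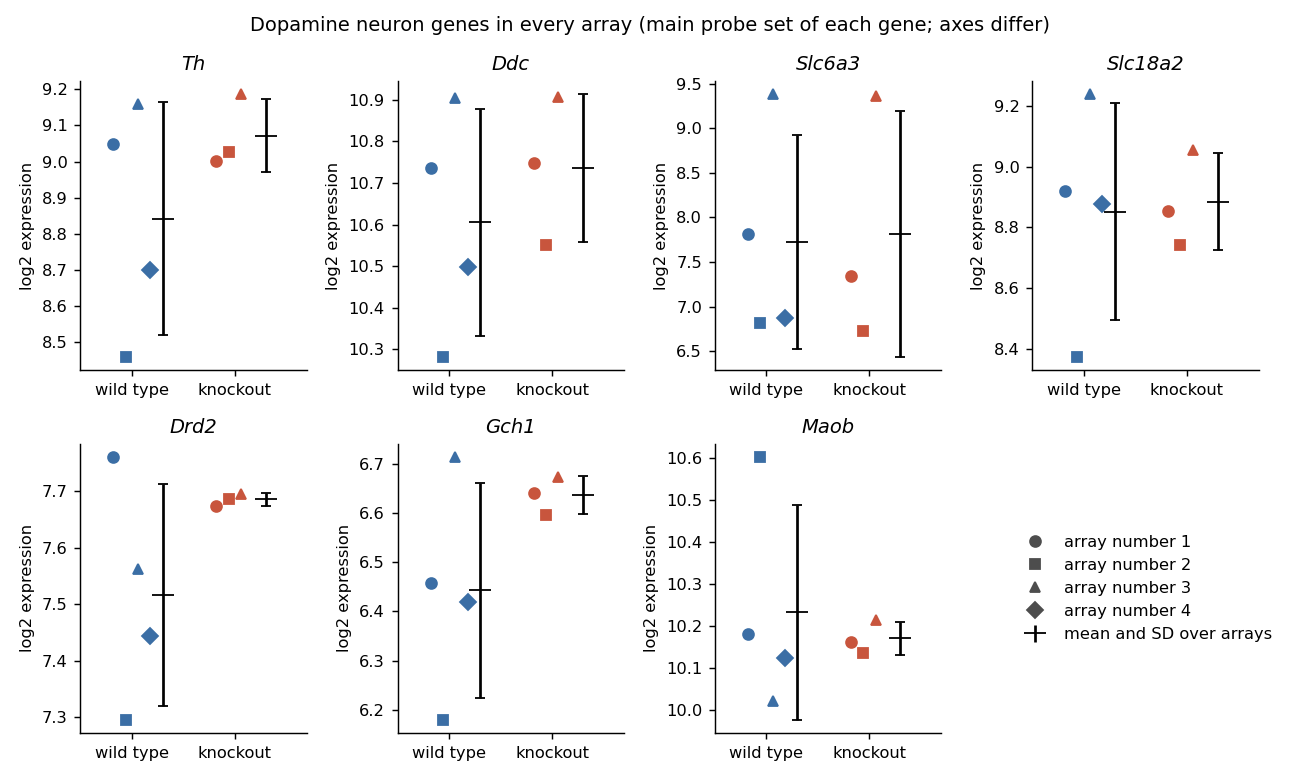
Log2 expression of the main probe set of each gene (vertical axis, one scale per gene) in 4 wild-type arrays (blue) and 3 knockout arrays (red), with the array number as the marker shape and the mean and SD at the side. Wild-type array 2 is the lowest in Th, Ddc, Slc18a2, Drd2 and Gch1 and the highest in Maob, and both arrays numbered 3 stand near 9.4 in Slc6a3.

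The same array recurred at the edge. Wild-type array 2 was the lowest of all 7 arrays in 5 of the 7 main probe sets, those of Th, Ddc, Gch1, Slc18a2 and Drd2, and the highest in that of Maob. This array also stood apart in markers of tissue next to the hypothalamus. Its score on a list of 19 genes of thalamus and habenula, the median of each gene's log2 deviation from its mean over all arrays, was 0.88, against -0.28 to 0.19 on the other 6. Tcf7l2, a thalamic transcription factor of that list, read 10.96 there and 8.66 to 10.20 elsewhere. The log2 of the summed level of the 19 genes ran from 14.4 to 15.0 in wild type and from 14.4 to 14.6 in the knockout. Markers of the arcuate nucleus were low on the same array, with a score of -0.26 over 17 of 20 genes measured, against -0.09 to 0.19 on the others. The part of either list in the dopamine gene values was not tested.

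Without wild-type array 2, Th and the main probe sets of Gch1 and Drd2 kept differences near 0.10 on the log2 scale, that of Ddc fell to 0.02, and Slc6a3, Slc18a2 and Maob changed sign. None of the 9 probe sets passed in that fit either (limma, adjusted p from 0.675 to 0.970).

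**Figure D2:**
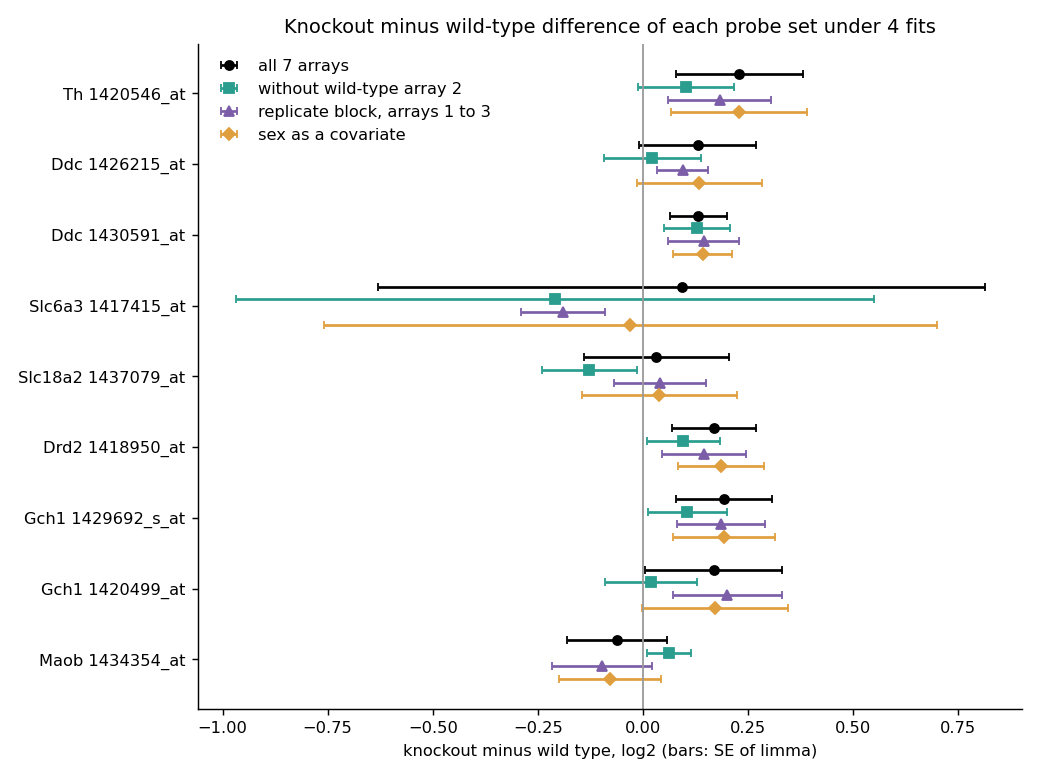
Knockout minus wild-type difference on the log2 scale (horizontal axis, bars are the SE of limma) for each of the 9 probe sets, with all 7 arrays (black), without wild-type array 2 (green), with the replicate number as a block over arrays 1 to 3 (purple) and with sex as a covariate (orange). The main Ddc difference falls from 0.13 to 0.02 without wild-type array 2, and the SE of Slc6a3 falls from 0.72 to 0.10 with the block.

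Sex was read from the X-linked transcript Xist and 3 Y-linked genes, since the labels do not give it. The wild-type arrays comprised 2 from females and 2 from males, and the knockout arrays 1 from a female and 2 from males. With sex as a covariate the difference of Th was 0.23 ± 0.16 (SE), that of Drd2 0.19 ± 0.10 and that of Slc6a3 -0.03 ± 0.73. Among females alone the Th difference was 0.13 and among males 0.30, with 1 knockout female, so the sexes were not compared by a test. Both arrays numbered 3 came from males, as did both arrays numbered 2, which were the lowest in Slc6a3.

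Levels of several of the genes were correlated across the arrays. Slc6a3 is left out of the pairs described over 7 arrays because its values fall into 2 separate clusters, of 2 and of 5 arrays. Neither holds the 6 arrays set here as the least for a correlation, so r over 5 arrays is given only as a description. Over the 5 lower arrays alone, the r of Slc6a3 was 0.56 with Slc18a2, 0.63 with Drd2, 0.25 with Gch1 and -0.27 with Maob. None of the 4 passed (exact permutation, adjusted p from 0.56 to 0.85). Among the other 6 genes there were 15 pairs, adjusted together with the 6 pairs of Slc6a3 over 21. The 10 pairs without Maob had Pearson's r from 0.56 to 0.93, and the 5 pairs with Maob had r from -0.85 to -0.61. By an exact permutation test, two-sided and over all 5040 orders of 7 arrays, 7 of the 15 passed an adjusted p of 0.05 by Pearson's r and 0 of all 21 by Spearman's rho. This test treats the 7 arrays as exchangeable and does not take account of the pairing by replicate number.

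Th and Ddc, the 2 enzymes that act in sequence, had r = 0.93 (exact permutation p = 0.0014, adjusted 0.028) and rho = 0.89 (exact permutation p = 0.012, adjusted 0.086). Without the 2 arrays farthest from the median of Th, wild-type arrays 2 and 4, r was 0.81 over 5 arrays (exact permutation p = 0.11, adjusted 0.284). Ddc and Slc18a2 had r = 0.91 and rho = 0.79 (exact permutation p = 0.0032 and 0.048, adjusted 0.028 and 0.144), and r = 0.91 without the same 2 arrays. Th and Gch1 had r = 0.92 and rho = 0.82 (exact permutation p = 0.0040 and 0.034, adjusted 0.028 and 0.119), and r = 0.55 without them.

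Th and Drd2 had r = 0.87 and rho = 0.71 (exact permutation p = 0.017 and 0.088, adjusted 0.047 and 0.168), but r = -0.42 without wild-type arrays 2 and 4, so this relation rests on those arrays. Of the 15 pairs, 10 kept the sign of r without the 2 farthest arrays, and of the 5 that turned 4 were pairs of Drd2. None of the 21 pairs passed over the 5 arrays left. An exact test over 5 arrays has few orders, so after adjustment over 21 pairs a pair could hardly pass. This count therefore says little about dependence on the arrays left out. On deviations from each genotype's mean, which remove the genotype difference, 6 of the 15 passed.

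**Figure D3:**
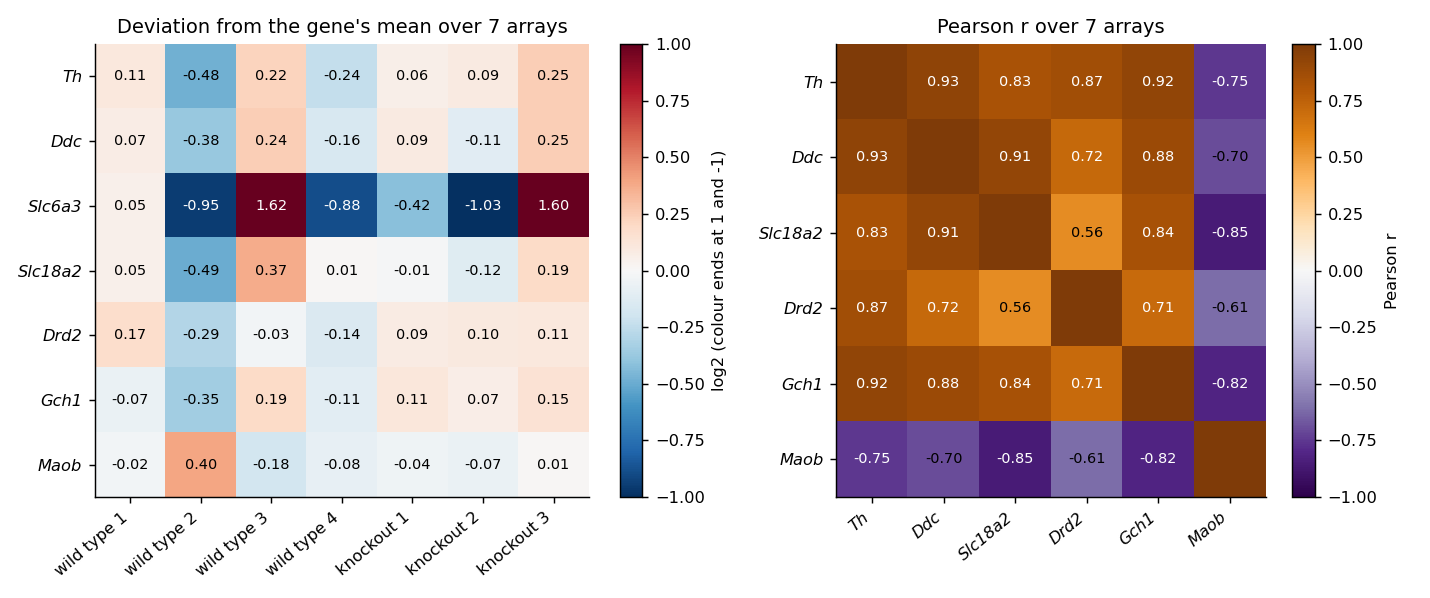
Left, the deviation of each gene's log2 level from its mean over 7 arrays (rows are genes, columns arrays, colour limited at 1 and -1); right, Pearson's r over the 7 arrays between 6 of the genes. Wild-type array 2 is below the mean in every gene but Maob, Slc6a3 stands 1.62 and 1.60 above its mean in the arrays numbered 3, and Th and Ddc share r = 0.93.

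Other genes followed Th at least as closely as the dopamine genes did. Among 11726 genes brighter than the median probe set, the 5 with the highest r to Th over the 7 arrays were Cmbl at 0.98, Adprm at 0.98, Zfp275 at 0.97, Zfp771 at 0.97 and Phax at 0.96. These genes spanned only 0.13 to 0.28 on the log2 scale, against 0.73 for Th. Ddc, at 0.93, ranked 22 in that order, Gch1 28, Drd2 104 and Slc18a2 188. All points are the same 7 arrays, so these ranks describe the arrays and carry no p.

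The arrays numbered 3 were high in more than Slc6a3. This description was made after the values of Slc6a3 were seen, so it carries no test. In 5 of the 7 dopamine genes, Th, Ddc, Gch1, Slc18a2 and Slc6a3, both arrays numbered 3 were above the other 5. The same held for 992 of 18193 genes, or 5.45%. Slc6a3 had the widest gap of all genes between the lower of these 2 arrays and the highest of the other 5, at 1.55 on the log2 scale or 2.92-fold.

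A gap of at least 0.25, a cut with no outside ground, was found in 8 genes. They included Ret, the receptor for glial cell line-derived neurotrophic factor that dopamine neurons carry, and Chrna6, a nicotinic receptor subunit of midbrain dopamine neurons. Chrna6 had the smallest of these 8 gaps, 0.253, just past the cut, and Pnrc2 fell just short of it, at 0.246. Ret read 9.56 and 9.47 in the arrays numbered 3 and 8.95 to 9.06 in the other 5. Chrna6 read 7.01 and 6.89 in the arrays numbered 3, and its other values ran from 5.75 in wild-type array 2 to 6.64 in wild-type array 1. The second probe set of each gene did not show this pattern. That of Ret read 6.39 and 6.24 in the arrays numbered 3 and 6.21 to 6.39 in the others, and that of Chrna6, at dim levels, 4.11 and 4.38 against 4.25 to 4.56. Egr3, an immediate early gene, had the second widest gap, 0.55, with 7.92 and 8.001 against 6.36 to 7.37. The remaining 4 were 2810049E08Rik, Il17d, Il16 and Lrrc58, with gaps from 0.26 to 0.29.

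The score of a list of markers of midbrain dopamine neurons, whose nuclei lie behind the hypothalamus, was highest on the same arrays. Of its 15 genes, 14 were measured, and their score was 0.10 in wild-type array 3 and 0.11 in knockout array 3, against -0.08 to 0.02 on the other 5. Of the 14 genes, 4 were above the other 5 arrays in both arrays numbered 3. Among these 4 were Ddc itself, Chrna6, already named above for this pattern, and En1, at a background level. Aldh1a1 was highest in wild-type array 4, at 10.90, and Calb1 read 12.40 in wild-type array 3 against 12.37 to 12.54 over all arrays. Of the list's transcription factors, En1 read 2.71 to 3.15, Lmx1a 3.98 to 4.14 and Pitx3 4.98 to 5.24 over all 7 arrays. These lie near or below the 5.07 median of the genes of other tissues. The other 5 were above it: Otx2 read 5.39 to 6.62, Lmx1b 6.29 to 6.50, Foxa1 6.89 to 7.62, Sox6 7.94 to 8.11 and Nr4a2 8.86 to 9.66. Foxa1 and Nr4a2 were highest in knockout array 3, while in wild-type array 3 neither was above all 5 of the arrays not numbered 3. The log2 of the summed level of the list ran from 13.3 to 13.4 in wild type and from 13.2 to 13.5 in the knockout. The score had rho = 0.82 with Slc6a3 over the 7 arrays (exact permutation p = 0.034, adjusted 0.621). Over the 5 arrays not numbered 3, r was 0.85 (exact permutation p = 0.075, adjusted 0.561). Whether midbrain tissue had a part in the Slc6a3 values was not tested.

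Markers of meninges were highest in wild-type array 3, with a score of 1.21, and at -0.42 in knockout array 3, the other array with high Slc6a3. Over the 7 genes, Slc6a3 included, and 13 marker lists there were 91 relations across arrays. Of these, 0 passed by r or by rho after adjustment, while 10 had an unadjusted p under 0.05 by r (exact permutation tests).

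**Figure D4:**
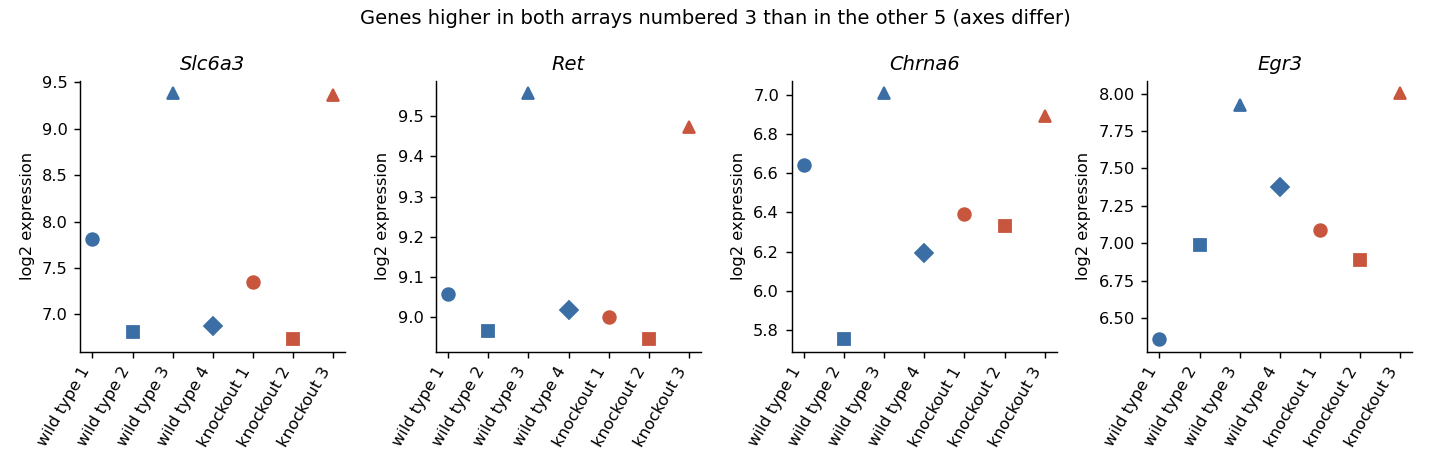
Log2 expression (vertical axis, one scale per gene) of Slc6a3, Ret, Chrna6 and Egr3 in each of the 7 arrays, wild type in blue and knockout in red, with the array number as the marker shape. Both arrays numbered 3 (triangles) are above the other 5 in each gene, by 1.55 in Slc6a3 and by 0.25 to 0.55 in the others.

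The rest of the dopamine and prolactin pathways was described with 7 lists holding 103 other genes, each by its brightest probe set. Of these, 90 were measured and 0 passed the threshold, with a lowest adjusted p of 0.233 (limma). The knockout was higher in 45 and lower in 45, with a median difference of 0.0020, against 0.0036 over all 18193 genes. Of the 90, 13 had an unadjusted p under 0.05, 6 higher and 7 lower, against a background of 11.5% of all genes. The groups did not overlap in 6 with the knockout higher and 6 with it lower, against 6.09% and 6.05% of all genes.

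In the list of dopamine synthesis and its cofactor, 5 of 6 measured genes were higher in the knockout, with a median of 0.06, and 0 passed. The smallest p-values were those of Qdpr, which regenerates the cofactor, at 0.05 ± 0.025 (SE), of Pcbd2 at 0.13 ± 0.060 and of Spr, the last enzyme of cofactor synthesis, at 0.19 ± 0.11. The other Qdpr probe set gave -0.03. Of 5 measured genes of monoamine degradation and uptake, the knockout was higher in 2 and lower in 3, and the median was -0.08. Aldh1a1, an aldehyde dehydrogenase of some dopamine neurons, had the widest difference of the pathway genes, -0.48 ± 0.24. It read 10.35, 10.59, 10.70 and 10.90 in wild type and 9.52, 10.28 and 10.69 in the knockout, and the groups overlapped. Maoa, the other monoamine oxidase, differed by 0.09 ± 0.049 and Slc29a4, a monoamine transporter, by -0.08 ± 0.057. The other probe set of Maoa gave -0.0071 and that of Slc29a4 0.04.

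Of 16 measured genes of dopamine receptors and their signalling, 11 were lower in the knockout, with a median of -0.03, and 0 passed. In 4 of them every knockout value was below every wild-type value, which held for 6.05% of all genes. Gnas, the stimulatory G protein subunit, read 13.69, 13.67, 13.67 and 13.66 in wild type and 13.58, 13.57 and 13.55 in the knockout. The difference was -0.11 ± 0.020 (SE), and the other 4 Gnas probe sets ranged from -0.53 to 0.01. Adcy5, the adenylyl cyclase on which Drd2 acts in the striatum, read 9.87, 9.96, 9.98 and 9.92 in wild type and 9.79, 9.75 and 9.71 in the knockout. Its difference was -0.18 ± 0.045, and its other 3 probe sets ranged from -0.12 to 0.12. Gnao1, a G protein subunit coupled to Drd2, differed by -0.12 ± 0.038 with its main probe set, by 0.07 and 0.09 with its other 2, and by 0.01 in their mean.

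Transcription factors of dopamine neurons were higher in 13 of 18 measured genes, with a median of 0.06. Pax6 differed by 0.21 ± 0.072 (SE) without overlap between the groups, Foxa1 by 0.31 ± 0.12 and Pitx3 by 0.13 ± 0.074, the last at a level near the genes of other tissues. The other Pax6 probe sets ranged from -0.0092 to 0.22. Of all genes, 6.09% had every knockout value above every wild-type value. Genes co-expressed in arcuate dopamine neurons were lower in 12 of 17, with a median of -0.04. Cacna1g, a T-type calcium channel, differed by -0.33 ± 0.10, Gad2, an enzyme of GABA synthesis, by -0.09 ± 0.038 and Kcnj8, a potassium channel subunit, by -0.17 ± 0.080. The other Gad2 probe set gave 0.02. Cacna1g read 8.90, 9.37, 9.02 and 9.18 in wild type and 8.81, 8.69 and 8.85 in the knockout, and wild-type array 2 was the highest.

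Of 19 measured genes of prolactin receptor signalling, the pathway below the receptor, the knockout was higher in 10 and lower in 9, and the median was 0.02. Stat3, a transcription factor that cytokine receptors activate, read 9.44, 9.34, 9.37 and 9.44 in wild type and 9.48, 9.51 and 9.53 in the knockout. Socs3, an inhibitor of such receptors, read 6.25, 6.18, 5.91 and 5.99 in wild type and 6.34, 6.50 and 6.26 in the knockout. Neither gene overlapped between the groups with its main probe set, and 6.09% of all genes were higher in the knockout without overlap. The differences were 0.11 ± 0.045 for Stat3 and 0.28 ± 0.10 for Socs3, with limma's adjusted p = 0.437 and 0.408. The other 3 Stat3 probe sets ranged from -0.16 to 0.03 and the other 2 of Socs3 from 0.04 to 0.16. Esr2, an estrogen receptor, differed by 0.25 ± 0.067 at levels of 4.95 to 5.27, near those of the genes of other tissues.

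Genes of other aminergic cells, which share Ddc and Slc18a2 with dopamine neurons, were higher in 5 and lower in 6 of the 11 measured, and the median difference was -0.06. Dbh, which turns dopamine into noradrenaline, differed by 0.20 ± 0.074 (SE) without overlap, Pnmt, which makes adrenaline, by -0.22 ± 0.10, and Hdc, which makes histamine, by 0.15 ± 0.087. None of the 3 passed (limma, adjusted p from 0.415 to 0.573). A lack of overlap with the knockout higher, as in Dbh, was seen in 6.09% of all genes. As the mean of a gene's probe sets, Dbh differed by 0.12, Pnmt by -0.01 and Hdc by 0.13.

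**Figure D5:**
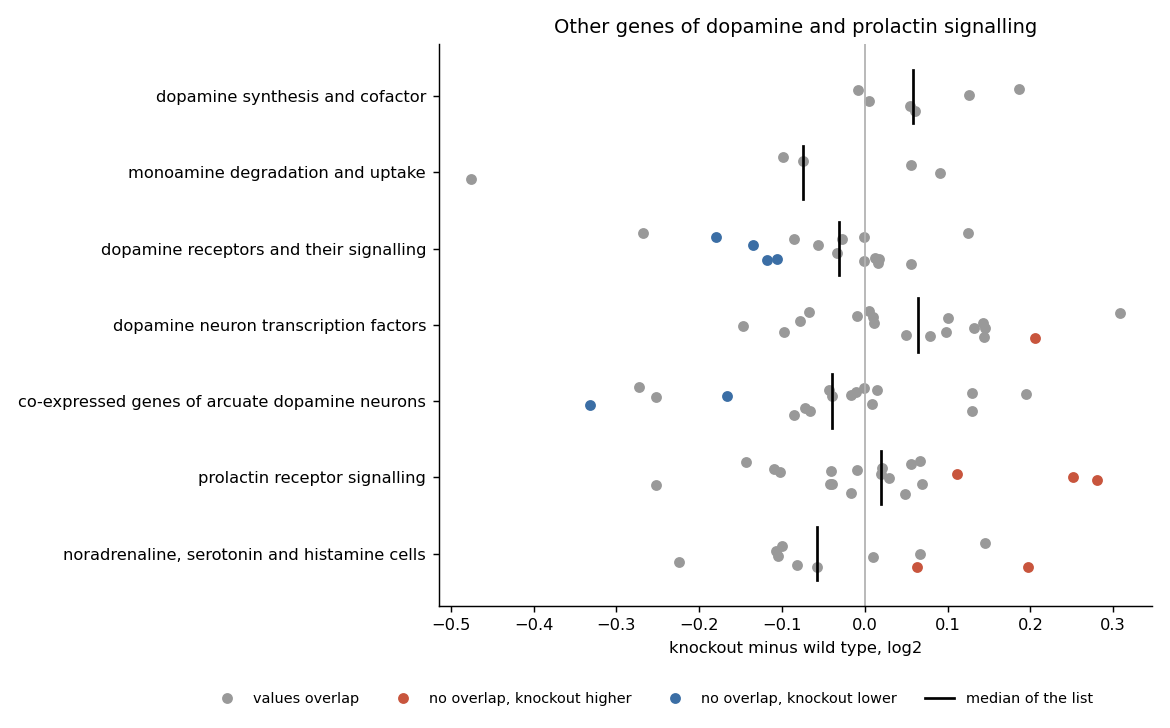
Knockout minus wild-type difference on the log2 scale (horizontal axis) of the 90 measured pathway genes in 7 lists, one point per gene, with the median of each list as a black line. Red and blue points are the 6 and 6 genes whose values do not overlap between the groups, with the knockout higher and lower; the medians lie from -0.08 to 0.06.

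The genes that share the full CRE with Th and Slc18a2 were described in the same way. Of the genes on the array, 422 had TGACGTCA in a promoter window, and their median difference was 0.0048, against 0.0039 over the 14452 genes with a window. Every knockout value was below every wild-type value in 7.35% of the 422 and in 6.06% of the 14452, and above in 6.64% and 6.17%. Of the 422, 0 passed, and 12.8% had an unadjusted p under 0.05, against 11.6%. The arrays do not show whether Creb was lost in the cells that express these genes.

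Facts of the whole series bear on these values as follows. The medians of the arrays lay between 6.19 and 6.24 on the log2 scale. Creb1, the deleted gene, read 9.40 to 9.57 in wild type and 9.42 to 9.47 in the knockout, and Pomc 9.24 to 10.28 and 9.66 to 10.30. Creb1 mRNA from all other cells of the tissue is measured too, so this does not check the labels. The pituitary hormone genes Prl and Gh read 3.96 to 4.24 and 5.61 to 5.97, within the range of the genes of other tissues. Tshb and Cga, which the pars tuberalis also expresses, read 4.64 to 7.94 and 6.91 to 10.11.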

How the data were processed

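The data are 7 Affymetrix mouse430_2 arrays. The deposited table holds log2 expression values of 45101 probe sets; per the submitters' processing notes R 2.10.0, affy and RMA were used, with no settings given. The fits leave out its 64 control probe sets. Of the 45037 tested, 34945 have 1 gene symbol in GEO's platform annotation, 932 several and 9160 none, and genes were named only from the first kind. The sources used here do not give its genome build.

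The difference was fitted with limma 3.58.1 (R 4.3.3) on all 7 arrays, with an intensity trend and Benjamini-Hochberg adjustment over all probe sets; the median SE was 0.079 on the log2 scale. Precision is limited by the number of arrays. The fit was tested on simulated data. Correlations used exact permutation tests. Alternatives changed the filter, variance model, array weights, normalization, sex, replicate block, arrays, probe sets and threshold.

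Replicate numbers recur in both groups. Deviations from the group means of arrays with the same number correlated at 0.26, 0.11 and 0.16, each over 0.1, so the numbers were taken to pair the arrays. This is a weak hint from the data and not from the labels, and arrays of different numbers were not compared in this way. Arrays of the same number also share sex, females for number 1 and males for numbers 2 and 3.

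The genes and lists were chosen with earlier results of these data known. All probe sets of the dopamine genes are named, with the 3 genes of smallest p in each pathway list, the 5 most like Th, and Creb1 and Pomc; other names were chosen after their values were seen. Promoter windows are those of RefSeq (GRCm38.p6).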

Additional observations from a re-analysis of the deposited data

How the results depend on the processing

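None of the 9 probe sets passed under any of 183 alternative values, the lowest adjusted p being 0.282 (limma), and 16 of the 183 changed sign. Slc6a3 turned to -0.0298 with sex as a covariate, to -0.00062 in females, -0.0492 in males and -0.19 over arrays 1 to 3 with or without the replicate block, and leaving out 1 array moved it from -0.68 (knockout array 3) to 0.65. Slc18a2 turned to -0.0449 in females and -0.0145 without wild-type arrays 2 and 3, and ranged from -0.13 (wild-type array 2) to 0.16 over single arrays left out, with -0.05 without knockout array 3. The second Gch1 probe set turned to -0.0170 in females. Maob turned to 0.0093 in females, 0.0179 without wild-type arrays 2 and 3 and, at the most, 0.0618 without wild-type array 2, with a lowest value of -0.13 over single arrays left out. Of 438 alternative values of 21 named pathway genes, 1 changed sign, Gnao1 at 0.0113 as the mean of its probe sets, and 0 passed. The replicate block changed no other direction or call among the dopamine genes. The number of all probe sets that passed, 3, became 5 with sex as a covariate, 1 in females, 9 in males, 1 with the mean of each gene's probe sets, 17 at an adjusted p under 0.10 and 3 to 46 when 1 array was left out, the most without wild-type array 1. By Pearson's r, 9 of all 21 pairs passed, 7 of them among the 15 without Slc6a3. Without the 2 arrays farthest from the median 0 passed. With the few orders of 5 arrays a pair could hardly pass, so this fall says little about dependence on those arrays. The causes were not tested. With 4 and 3 arrays and the Slc6a3 spread seen here, changes within its interval could not be detected, and the second Ddc probe set is too dim to be read.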
